A study of Mus musculus with 6 samples.

Results

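The STAT (signal transducer and activator of transcription) genes Stat2, Stat3, Stat4, Stat5a, Stat5b and Stat6 were examined in M2 macrophages, the cells that IL-4 and IL-13 polarize toward an anti-inflammatory state. They are 6 of the 41549 genes in the deposited mRNA table and were taken by their symbols. The macrophages were grown from bone marrow of wild-type C57Bl/6 N mice with M-CSF, transfected with an antisense oligonucleotide (ASO), and then exposed to IL-4 and IL-13. The ASO of the αGlu group was directed against 5′tRF-Glu(CTC), the 5′ portion cleaved from tRNA-Glu, and the Ctr group received a control ASO, so that transfection, medium and polarization were shared by both groups. Each group had 3 libraries. Neither unpolarized nor untransfected cells are among these libraries, so the comparison asks how STAT transcripts differed with the fragment targeted in cells that all received IL-4 and IL-13. The fragment itself was not measured in these mRNA libraries. By the study's methods, replicates of primary cells are preparations from separate mice.

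STAT proteins wait in the cytoplasm until a cytokine receptor engages Janus kinases (JAKs), which phosphorylate the receptor and then the STAT. Phosphorylated STATs pair through their SH2 domains, enter the nucleus and bind short palindromes in promoters and enhancers. STAT6 carries the IL-4 and IL-13 signal and is the factor most closely tied to the M2 state. STAT3 serves the IL-6 and IL-10 families and G-CSF, the paired STAT5A and STAT5B serve GM-CSF, IL-3 and IL-2, STAT2 joins IRF9 in the complex that answers type I interferon, and STAT4 serves IL-12 in lymphocytes. Since activity depends on phosphorylation, transcript levels report the supply of a STAT and not its use.

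The 20-base inhibitor and its 21-base target are shown because they define the αGlu group. Capitals in the target mark bases 2 to 21, which are complementary to the whole inhibitor.
Inhibitor: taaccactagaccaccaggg
Target in 5′tRF-Glu(CTC): tCCCTGGTGGTCTAGTGGTTA

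In GENCODE release M21, on the GRCm38 build that the submitters' processing notes name, the 6 genes lie at 3 places. Stat5b (chr11:100780731-100850724, minus strand), Stat5a (chr11:100859351-100885169, plus strand) and Stat3 (chr11:100885098-100939540, minus strand) are neighbours. Stat6 (chr10:127642986-127660957) and Stat2 (chr10:128270559-128292849) are both on the plus strand of chromosome 10, 609601 bases apart. Stat4 (chr1:51987148-52107189) is on the plus strand of chromosome 1. The 3′ ends of Stat5a and Stat3 run into each other on opposite strands over 72 exonic bases, which is 1.01% of the exonic bases of Stat5a and 0.756% of those of Stat3. The kit was stranded, but whether the counting used strand is not given, so reads in that stretch could have gone to either gene. Stat5a and Stat5b are close copies. Of all 50-base windows in their transcripts, 8.21% of those of Stat5a and 11% of those of Stat5b occurred in the other gene, and no other pair of members shared a window. How reads that fit both genes were counted is not given, and the sum of the pair is therefore reported beside each.

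The library labelled αGlu 1 stood apart from the other members of its group. Across the 11933 genes tested, log2 counts per 1000000 (CPM) correlated at 0.992 (Pearson r) for αGlu 2 with αGlu 3, and at 0.929 for αGlu 1 with either. αGlu 1 correlated with the Ctr libraries at 0.966 to 0.982. Total counts ranged from 17912831 in αGlu 1 to 30386653 in αGlu 2. Within the Ctr group, Ctr 1 was set apart by low interferon-responsive genes, described with Stat2. With all 6 libraries and edgeR's quasi-likelihood test, 0% of the genes tested passed the call rule, which was an adjusted p under 0.1 with a log2 fold change beyond 1 in either direction, while 24.7% had an unadjusted p under 0.05, DESeq2 called 1117 genes and the likelihood-ratio test of edgeR called 899. Each library was left out in turn, and the fit without αGlu 1 is given beside the others because leaving out that library alone moved the number of calls above 0. All 8 macrophage markers were detected at 12.45 CPM or more in every library, with Csf1r, the receptor for M-CSF, between 2400 and 3054 CPM. Their levels were not uniform. In αGlu 2 and αGlu 3, Cd14 (293 and 240 CPM, 12.45 to 30.1 elsewhere) and Itgam (1035 and 1305 CPM, 324 to 534 elsewhere) were higher. Cd68 was lower in these libraries (1237 and 1144 CPM, 1809 to 2063 elsewhere). Markers of other cell types were low when summed over each list, at no more than 0.818 CPM for B cells, 2.34 for dendritic cells and 6.85 for neutrophils in any library. Mast cell and basophil markers summed to 2.09 to 4.43 CPM in Ctr and 1.54 to 9.23 in αGlu, and those of fibroblasts and stromal cells to 3.62 to 10.5 CPM in Ctr and 1.10 to 3.73 in αGlu.

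None of the STAT genes was called, and the 5 that passed the filter on low counts showed 3 patterns. Stat6, Stat5a and Stat5b lay at nearly the same level in both groups. In bulk RNA, a change in the number of expressing cells and a change in RNA per cell cannot be told apart. For Stat3, each αGlu library lay above all Ctr libraries. Stat2 differed mainly through the library Ctr 1. Stat4 failed the filter and had reads mostly in αGlu 2 and αGlu 3. Of the 5 tested genes, 1 was higher in αGlu without overlap between the groups, against 14.2% of all genes, and none was lower without overlap, against 15.9% of all genes. With 5 genes, a count of 1 is close to that background.

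**Figure D1:**
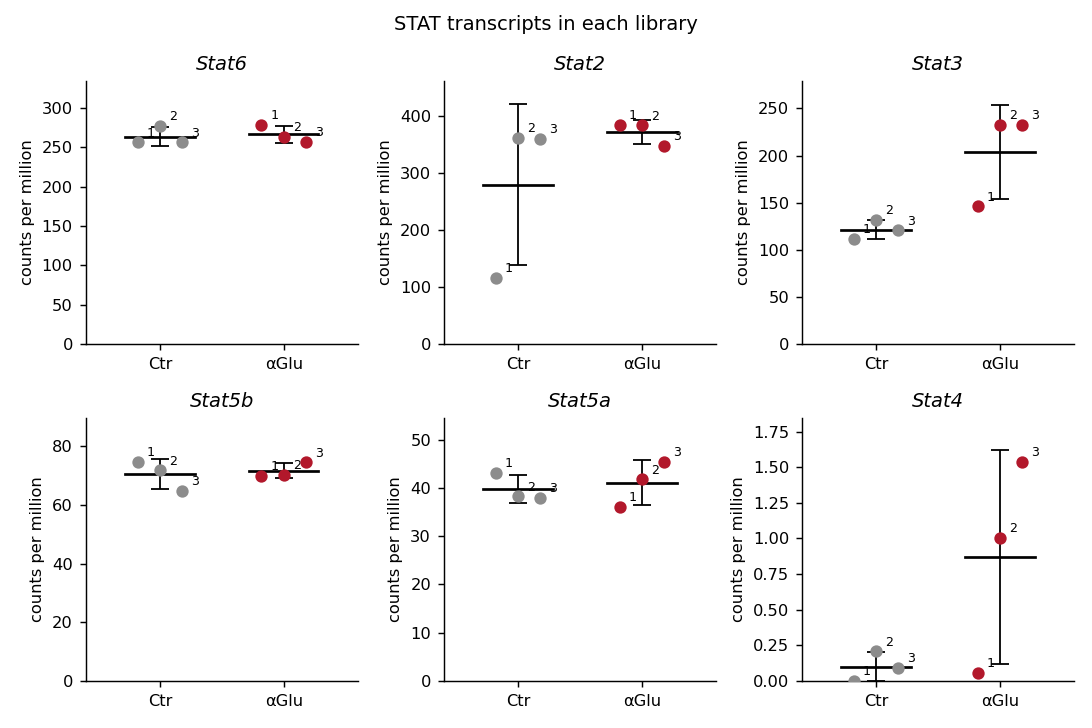
CPM (vertical axis, linear from 0) of each STAT gene in the 3 Ctr and the 3 αGlu libraries. Points are libraries, marked with their number, horizontal lines are group means and error bars are 1 SD, ending at 0 for Stat4 in Ctr. The αGlu points of Stat3 all lie above the Ctr points, and the low Ctr point of Stat2 is Ctr 1.

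Levels were compared between genes on the transcripts per 1000000 (TPM) scale, which corrects for transcript length. In the Ctr group Stat6 was the most abundant at 181 ± 7.0 TPM (SD, n = 3), followed by Stat2 at 142 ± 70.1, Stat3 at 38.5 ± 2.6, Stat5b at 38.4 ± 3.3, Stat5a at 16.9 ± 1.5 and Stat4 at 0.077 ± 0.081. The ranges of Stat6 and Stat2 overlapped, as did those of Stat3 and Stat5b, and the other neighbours in this order did not. In the αGlu group the order was Stat2 at 201 ± 7.3 TPM (SD, n = 3), Stat6 at 193 ± 2.5, Stat3 at 68.7 ± 18.2, Stat5b at 41.4 ± 2.6, Stat5a at 18.5 ± 2.6 and Stat4 at 0.73 ± 0.64. Stat2 and Stat6 overlapped again, while Stat3 and Stat5b no longer did, since the lowest Stat3 value (47.7) was above the highest Stat5b value (44.3). Stat3 made up 8.54% to 10.7% of the summed STAT TPM in the Ctr libraries, 9.53% in αGlu 1, 14.5% in αGlu 2 and 15.1% in αGlu 3.

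**Figure D2:**
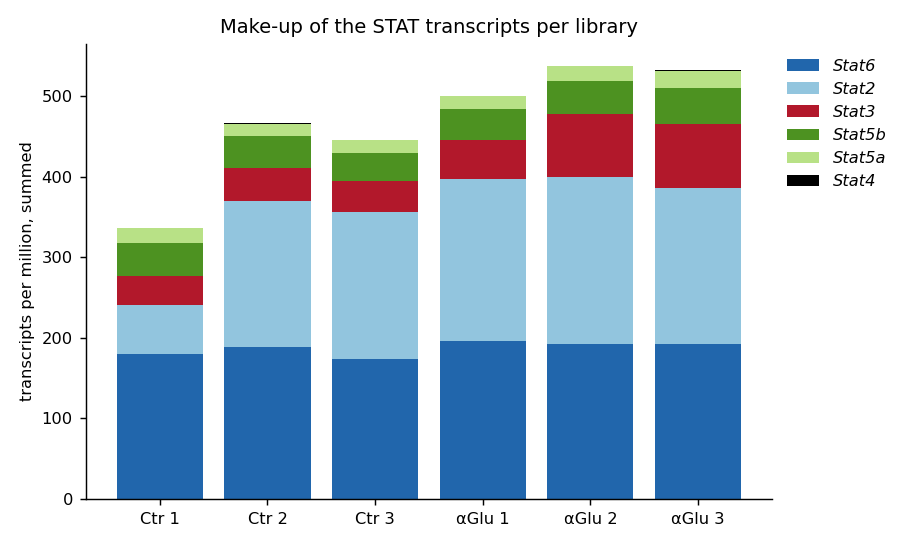
Deposited TPM of the STAT genes stacked for each library (vertical axis, from 0), with 1 colour per gene. The Stat2 segment is short in Ctr 1 (60.7 TPM) and the Stat3 segment is tall in αGlu 2 and αGlu 3 (78.2 and 80.2 TPM). Stat4 is too small to see in most libraries.

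Stat6, the factor of the IL-4 pathway, differed between the groups by less than the spread of the libraries. It measured 257, 278 and 256 CPM in Ctr 1, 2 and 3 and 279, 264 and 257 CPM in αGlu 1, 2 and 3. The values interleave, and αGlu 1 lay at the upper end with Ctr 2. The log2 fold change was 0.02 with an SE of 0.09 and an adjusted p of 0.922. Its 95% interval spans a 0.866-fold to a 1.18-fold level. On the deposited TPM scale the αGlu libraries (192 to 196 TPM) were all slightly above the Ctr libraries (174 to 188 TPM), and the groups overlapped again on the CPM scale, which uses library sizes adjusted by the trimmed mean of M-values (TMM). The 3′ end of Stat6 shares 40 exonic bases with Nab2 on the opposite strand, 0.909% of its exonic bases.

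Stat5b, which with Stat5a answers GM-CSF, IL-3 and growth hormone, was close to level across the libraries. It measured 74.8, 71.9 and 64.9 CPM in the Ctr libraries and 70.0, 70.3 and 74.6 CPM in the αGlu libraries, and its log2 fold change of 0.02 (SE 0.08, adjusted p 0.872) had a 95% interval from 0.885-fold to 1.17-fold. Stat5a measured 43.2, 38.3 and 38.0 CPM in the Ctr libraries and 36.1, 41.8 and 45.5 CPM in the αGlu libraries. Both the lowest and the highest Stat5a values came from the αGlu group, and the groups overlapped fully. Stat5a differed by 0.05 on the log2 scale (SE 0.11, adjusted p 0.794), with an interval from 0.859-fold to 1.24-fold. The sum of the pair, which does not depend on how shared reads were split between them, was 110 ± 7.6 CPM in Ctr and 113 ± 7.0 CPM in αGlu (SD, n = 3). Per length, Stat5b was 2.11 to 2.49 times as abundant as Stat5a in every library, and the ranges of this ratio overlapped between the groups.

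Stat3, which mediates signals of IL-10, IL-6 and G-CSF in macrophages, had the largest fold change of the 5 tested in the fit of all libraries. It measured 112, 132 and 121 CPM in Ctr 1, 2 and 3, and 146.5, 232.5 and 232.5 CPM in αGlu 1, 2 and 3. The groups did not overlap, αGlu 2 and αGlu 3 lay together near 1.91 times the Ctr mean, and αGlu 1 lay between them and the Ctr libraries at 1.21 times that mean. The log2 fold change was 0.75 (SE 0.20, 95% interval 1.20-fold to 2.35-fold), with an unadjusted p of 0.0095 and an adjusted p of 0.157, which misses the threshold. DESeq2 gave 0.74 (SE 0.23) with an adjusted p of 0.0184, below the threshold for p but not past the fold limit. Without αGlu 1 the log2 fold change was 0.93 (SE 0.09) with an adjusted p of 0.00068, in a fit where 23.5% of genes were higher and 25.6% lower at an adjusted p under 0.1. Of the 6 STAT genes, all of which passed the filter on low counts in that fit, 2 were higher by that rule (Stat3 and Stat4) and 0 were lower, and Stat4 passed the filter only through αGlu 2 and αGlu 3.

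**Figure D3:**
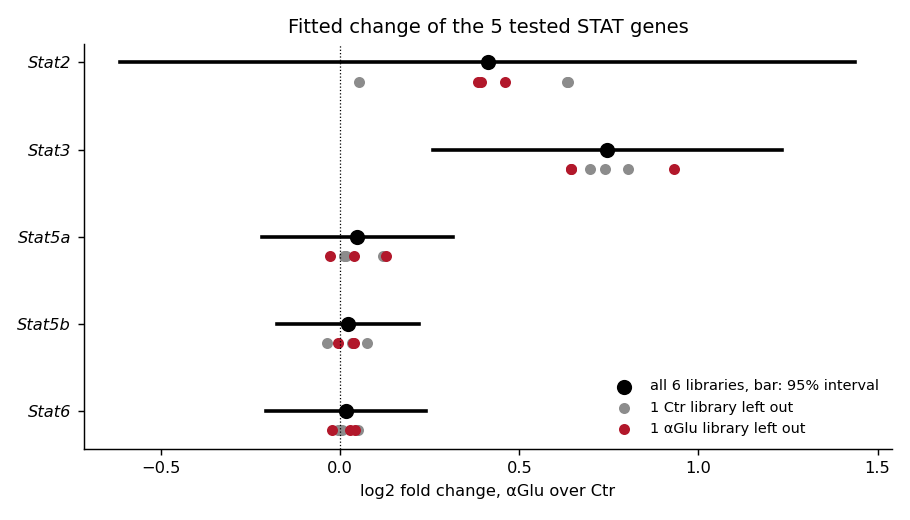
Log2 fold change, αGlu over Ctr (horizontal axis), of the 5 tested STAT genes. Black points and bars are the fit of all 6 libraries with its 95% interval, and grey and red points are fits with 1 Ctr or 1 αGlu library left out. The interval of Stat3 lies above 0 (0.26 to 1.23), and the lone grey point of Stat2 near 0 is the fit without Ctr 1 (0.05).

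Stat2, the partner of IRF9 in the interferon-stimulated complex, was low in 1 control library. It measured 117, 362 and 361 CPM in Ctr 1, 2 and 3 and 385, 384 and 348 CPM in αGlu 1, 2 and 3. Ctr 2 and Ctr 3 lay within the range of the αGlu libraries, and Ctr 1 was far below all 5 other libraries. The fitted difference was 0.41 on the log2 scale (SE 0.42, 95% interval 0.654-fold to 2.71-fold, adjusted p 0.543). Without Ctr 1 it was 0.05 (SE 0.11, adjusted p 0.806).

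Genes known to be induced through STAT2 were low in the same library. Of 20 interferon targets, all 20 had their lowest level of the 6 libraries in Ctr 1. Their summed level was 892 CPM in Ctr 1, 4606 in Ctr 2 and 4961 in Ctr 3, against 6212, 5037 and 4325 CPM in αGlu 1, 2 and 3. Ctr 2 and Ctr 3 lay within the range of the αGlu libraries, as they did for Stat2. Irf9, the DNA-binding partner of STAT2, was also lowest in Ctr 1 at 53.9 CPM, against 79.6 to 88.5 CPM in the other libraries. All 20 targets were tested, and none had an unadjusted p under 0.05 (24.7% of all genes). Without overlap, 9 were higher in αGlu and 0 lower (14.2% and 15.9% of all genes). In the fit without αGlu 1, 0 rose and 0 fell (23.5% and 25.6% of all genes). Their median log2 fold change was 0.56, against 0.02 over all genes tested, and 0.14 without Ctr 1. Irf7, the interferon regulatory factor that amplifies the response, measured 43.9, 475 and 559 CPM in the Ctr libraries and 756.5, 1095 and 1005 CPM in the αGlu libraries (log2 fold change 1.41, SE 0.83, adjusted p 0.314). Oasl1, an oligoadenylate synthetase-like protein that restrains Irf7 translation, measured 3.54, 37.4 and 35.8 CPM against 49.9, 100.1 and 77.3 CPM (log2 fold change 1.57, SE 0.79, adjusted p 0.262). Both were named because their groups did not overlap, so αGlu values above Ctr 2 and Ctr 3 follow from that choice. Of the 20 targets, 11 overlapped, among them Ifit2 at 66.2, 680 and 714 CPM in Ctr and 1089, 324 and 247 CPM in αGlu. What set Ctr 1 apart was not tested.

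**Figure D4:**
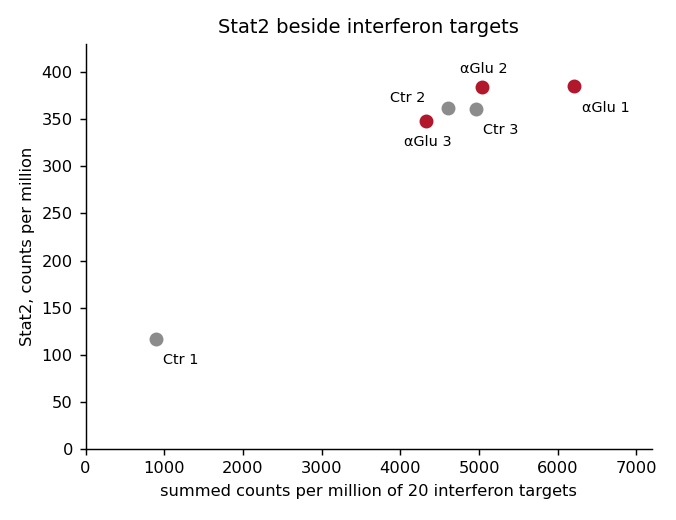
Stat2 level (vertical axis, CPM) against the summed level of 20 interferon targets (horizontal axis, CPM) in the 6 libraries, both axes linear from 0. Ctr 1 lies alone at 117 and 892 CPM, and the other 5 libraries of both groups lie together between 348 and 385 CPM of Stat2.

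The promoters of the STAT genes were read for the motifs of STAT complexes, because Stat2 and interferon targets were low in the same library. The 250 bases upstream of 9 RefSeq start sites (GRCm38.p6) were searched on both strands for the interferon-stimulated response element TTTCNNTTTC, for the gamma-activated site TTCNNNGAA and for the wider-spaced palindrome TTCNNNNGAA preferred by STAT6. These occurred in 2.98%, 7.02% and 5.85% of 32851 promoter windows of the same length. The response element was found in the Stat2 window, 222 to 213 bases before the start, and in the window of 1 of the 2 Stat4 starts, 97 to 88 bases before it. The wider palindrome was found in the Stat2 window at 210 to 201 bases before the start, next to the response element and not overlapping it. No other member's window held any of the 3 motifs, and none held TTCNNNGAA. Of the 20 interferon targets, 15 had a window and 6 of these held the response element, against 3.46% of all genes with a window. A match in these letters is a description and not evidence of binding.
The stretches of these windows around the matches follow, on the plus strand with matches in capitals, Stat2 at chr10:128270248-128270342 and Stat4 at chr1:52008098-52008197.
Stat2: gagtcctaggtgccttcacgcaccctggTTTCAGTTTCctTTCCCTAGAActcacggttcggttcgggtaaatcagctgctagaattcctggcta
Stat4: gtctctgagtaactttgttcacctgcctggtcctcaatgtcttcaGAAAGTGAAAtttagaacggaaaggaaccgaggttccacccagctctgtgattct

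Stat4, the IL-12 factor of T and NK cells, was close to the limit of detection. It had 0, 5 and 2 reads in Ctr 1, 2 and 3 and 1, 32 and 42 reads in αGlu 1, 2 and 3, or at most 1.54 CPM. The 0 in Ctr 1 allows up to 0.136 CPM, and αGlu 1 lay within the range of the Ctr libraries. Summed over each group, 75 reads in αGlu against 7 in Ctr give a 9.46-fold ratio, with an exact 95% interval from 4.37 to 24.3 that covers counting error only and not the spread between libraries. Stat4 was removed by the filter on low counts. With no filter the fit gave 3.06 on the log2 scale (SE 1.17, adjusted p 0.226), and DESeq2 gave 3.10 (SE 1.38, adjusted p 0.13). Without αGlu 1 it passed the filter through the group in which it is high, and the fit gave 3.55 (SE 0.71, adjusted p 0.0095).

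Lymphocyte markers were examined because STAT4 serves IL-12 in lymphocytes. Of 11 T and NK cell markers, 3 had no read in any library, among them Cd3g and Trac, and the summed level ranged from 0.742 to 0.92 CPM in Ctr and from 0.287 to 1.76 CPM in αGlu. The marker with most signal was Lck, a kinase of T cell receptor signalling, at 0.318, 0.376 and 0.371 CPM in Ctr and 0.057, 1.35 and 1.03 CPM in αGlu, so it was high in the same libraries as Stat4. Cd5, another T cell marker of the list, went the other way, at 0.273, 0.251 and 0.232 CPM in Ctr and 0.115, 0.031 and 0 CPM in αGlu. Cd3d and Cd3e were at or near 0 in every library. Of the exonic bases of Stat4, 26.7% are shared on the same strand with the processed transcript Gm28177, and reads there cannot be assigned to either gene. Gm28177 had 2, 1 and 3 reads in the Ctr libraries and 13, 20 and 14 in the αGlu libraries.

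Upstream of STAT6, receptor chains and kinases differed in unlike ways while Stat6 itself was level. Il4ra, the chain that binds IL-4 and recruits STAT6, measured 62.7, 61.1 and 66.3 CPM in the Ctr libraries and 78.2, 509.8 and 643 CPM in the αGlu libraries, which is 2.70 on the log2 scale (SE 0.73, adjusted p 0.157) and 3.18 without αGlu 1 (SE 0.12, adjusted p 2.6e-05). Il2rg, the common gamma chain that completes the type I IL-4 receptor, measured 132, 178 and 227 CPM against 218, 503 and 547 CPM, overlapping through αGlu 1 and Ctr 3 (1.24 on the log2 scale, SE 0.39, adjusted p 0.162, and 1.55, SE 0.21, adjusted p 0.0023 without αGlu 1). Il13ra1, the chain of the type II receptor, measured 10.6, 16.2 and 16.2 CPM against 19.7, 22.2 and 17.0 CPM, a difference of 0.45 on the log2 scale (SE 0.20, adjusted p 0.221). Il13ra2, a receptor that binds IL-13 without a STAT-activating tail, had 9 reads over the Ctr group and 25 over the αGlu group and was not tested. Of the 3 chains tested, 2 were higher and 0 lower without overlap (14.2% and 15.9% of all genes). Without αGlu 1, 2 rose (Il4ra and Il2rg) and 0 fell (23.5% and 25.6% of all genes).

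Jak2 and Jak3 were higher in αGlu 2 and αGlu 3, and Jak1 and Tyk2 were level. Jak2, the kinase of GM-CSF and IL-12 receptors, measured 142.5, 213 and 216 CPM in the Ctr libraries and 207, 762 and 840 CPM in the αGlu libraries (log2 fold change 1.66, SE 0.53, adjusted p 0.162, and 2.07, SE 0.19, adjusted p 0.00047 without αGlu 1). Jak3, which pairs with the common gamma chain, measured 15.9, 16.6 and 16.2 CPM against 19.7, 42.8 and 43.7 CPM and did not overlap (log2 fold change 1.13, SE 0.30, adjusted p 0.157). Like Stat3, Jak3 was lowest of its group in αGlu 1 and nearly equal in αGlu 2 and αGlu 3. Jak1, which serves IL-4, IL-6 and interferon receptors, measured 360, 321 and 307 CPM against 335, 313 and 312 CPM (log2 fold change -0.04, SE 0.11, adjusted p 0.811). Tyk2, the kinase of interferon and IL-12 receptors, measured 89.7, 98.2 and 89.0 CPM against 109, 87.6 and 91.6 CPM (log2 fold change 0.06, SE 0.11, adjusted p 0.745). The median log2 fold change of the 4 kinases was 0.59.

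Of 29 other receptors that signal through a STAT, 21 were tested, and 5 were higher and 2 lower without overlap (14.2% and 15.9% of all genes). In the fit without αGlu 1, 7 of these 21 rose and 8 fell (23.5% and 25.6% of all genes). Csf3r, the G-CSF receptor that uses STAT3, measured 103, 141 and 158 CPM in the Ctr libraries and 183, 536 and 607.5 CPM in the αGlu libraries (log2 fold change 1.72, SE 0.46, adjusted p 0.157). Epor, the erythropoietin receptor that uses STAT5, was under about 1 CPM in all libraries and measured 0.909, 1.003 and 0.974 CPM against 0.344, 0.409 and 0.183 CPM (log2 fold change -1.61, SE 0.36, adjusted p 0.156). The median of this group was -0.09, close to that of all genes.

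Nuclear partners of STATs were nearly level. Of 8 partners and coactivators, all tested, 1 was higher without overlap and none was lower (14.2% and 15.9% of all genes), and the median log2 fold change was 0.06. Without αGlu 1, 0 rose and 2 fell (23.5% and 25.6% of all genes). The gene higher without overlap was Ncoa1, a histone acetyltransferase that STAT6 recruits, at 47.2, 47.6 and 46.6 CPM in Ctr against 56.4, 51.7 and 48.3 CPM in αGlu (log2 fold change 0.15, SE 0.08, adjusted p 0.283).

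Of 18 inhibitors and phosphatases of the pathway, all tested, 2 were higher and 1 lower without overlap (14.2% and 15.9% of all genes), and their median was -0.02. In the fit without αGlu 1, 5 rose and 5 fell (23.5% and 25.6% of all genes). Socs1, which blocks JAK1 and JAK2 and is induced by IL-4 and interferon, measured 7.27, 8.94 and 9.23 CPM in Ctr and 12.2, 38.6 and 39.6 CPM in αGlu (log2 fold change 1.83, SE 0.45, adjusted p 0.156). Socs6, another protein of the suppressor of cytokine signalling family, measured 136, 121 and 123 CPM against 109, 63.7 and 63.4 CPM (log2 fold change -0.69, SE 0.23, adjusted p 0.17). Socs3 and Cish, named after their values were seen, differed between αGlu 1 and the rest of its group. Socs3, the inhibitor that STAT3 itself induces, measured 0.772, 0.418 and 0.139 CPM in Ctr and 0.516, 221 and 216 CPM in αGlu. Cish, an inhibitor induced through STAT5, measured 15.4, 18.4 and 13.5 CPM in Ctr and 8.83, 51.6 and 49.9 CPM in αGlu.

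**Figure D5:**
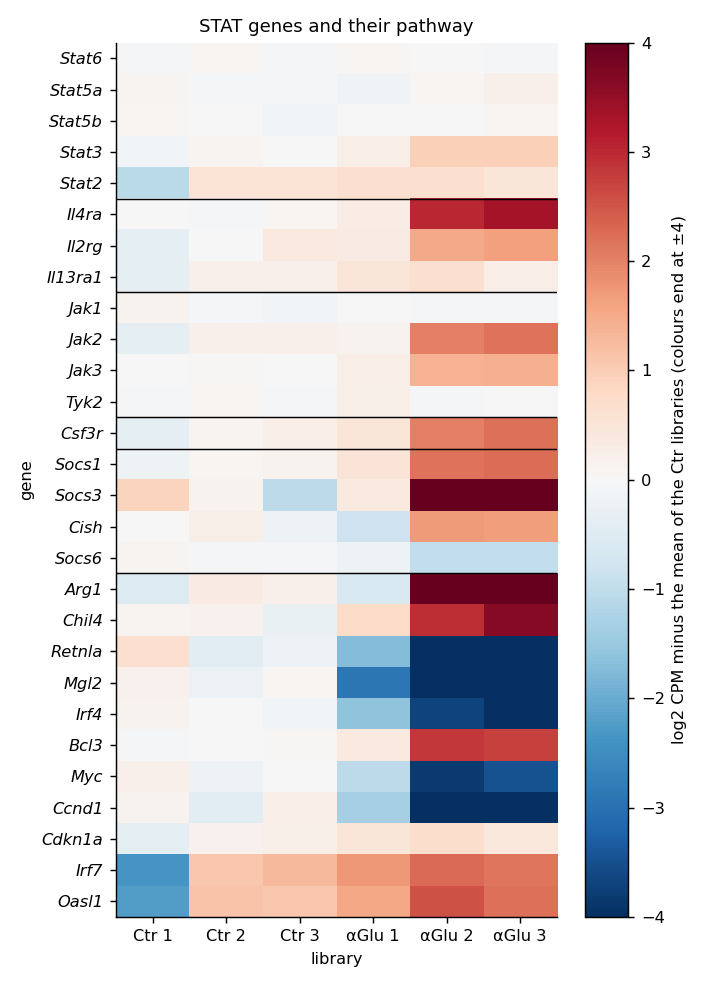
Log2 CPM of STAT genes and of genes of their pathway in each library minus the mean of the 3 Ctr libraries (colour, red higher and blue lower, ending at 4 in each direction), in blocks from the top of STATs, IL-4/IL-13 receptor chains, Janus kinases, the G-CSF receptor, SOCS proteins and targets. The rows of Stat6, Stat5a and Stat5b are nearly white, while Il4ra, Jak2, Socs3 and Arg1 are red and Mgl2 and Irf4 are blue in αGlu 2 and αGlu 3.

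Known targets of STAT6 in M2 macrophages differed in both directions while Stat6 was level. Of 24 listed, 23 were in the table and 21 were tested, 1 was higher and 8 were lower without overlap (14.2% and 15.9% of all genes), and the median log2 fold change was -0.41. Without αGlu 1, 7 of these 21 rose and 10 fell (23.5% and 25.6% of all genes). Mgl2, a galactose-binding lectin of M2 macrophages, measured 87.9, 66.3 and 83.9 CPM in the Ctr libraries and 10.6, 0.504 and 2.35 CPM in the αGlu libraries (log2 fold change -4.21, SE 0.98, adjusted p 0.156). Retnla, the secreted M2 marker also called FIZZ1, measured 540, 245.5 and 289 CPM against 101, 0.031 and 0.037 CPM (log2 fold change -3.42, SE 2.24, adjusted p 0.354). Both were named because their groups did not overlap, so αGlu 1 values below every Ctr library follow from that choice. In the other direction, and named after its values were seen, Arg1, the arginase that marks M2 cells, measured 24.3, 45.2 and 41.5 CPM against 23.5, 1886 and 1792 CPM. The gene higher without overlap was Chil4, a chitinase-like protein, at 1.32, 1.38 and 0.974 CPM against 2.06, 10.04 and 15.9 CPM.

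Of 15 targets of STAT3, 13 were tested, 11 had a fold change above 0 and 2 below, and the median log2 fold change was 0.67 against 0.02 over all genes. Without overlap, 5 were higher and 1 lower (14.2% and 15.9% of all genes). Without αGlu 1, 9 of these 13 rose and 1 fell (23.5% and 25.6% of all genes). Bcl3, an IκB-family protein, measured 8.13, 8.27 and 8.63 CPM in Ctr and 11.0, 59.8 and 55.9 CPM in αGlu (log2 fold change 2.34, SE 0.61, adjusted p 0.156). Myc, the growth-promoting transcription factor, was the gene that fell in that fit, at 30.2, 23.0 and 26.7 CPM against 12.8, 1.79 and 2.31 CPM (log2 fold change -2.28, SE 0.77, adjusted p 0.17). Several genes of this list are also induced by NF-κB, so the list does not isolate STAT3.

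Of 10 STAT5 targets, 9 were tested, 7 had a fold change above 0 and 2 below, and the median was 0.27. Without overlap, 1 was higher and 1 lower (14.2% and 15.9% of all genes). Without αGlu 1, 3 rose and 1 fell (23.5% and 25.6% of all genes). Ccnd1, cyclin D1, measured 63.1, 42.0 and 68.9 CPM in Ctr and 22.8, 0.913 and 0.734 CPM in αGlu (log2 fold change -2.89, SE 1.29, adjusted p 0.225), and Cdkn1a, the cell cycle inhibitor p21, measured 123, 182 and 189 CPM against 226, 265.5 and 215 CPM (log2 fold change 0.52, SE 0.19, adjusted p 0.181). Of 7 STAT4 targets, 4 were tested, and the median was -0.45. Without overlap, 2 were higher and 1 lower (14.2% and 15.9% of all genes), and 2 rose and 2 fell without αGlu 1 (23.5% and 25.6%). Hlx, a homeobox factor, measured 22.8, 22.3 and 23.3 CPM against 26.8, 33.3 and 39.1 CPM (log2 fold change 0.54, SE 0.14, adjusted p 0.156). Gadd45g, a stress-response gene, measured 22.9, 25.4 and 22.5 CPM against 21.6, 3.59 and 1.91 CPM (log2 fold change -1.41, SE 0.86, adjusted p 0.329). Tbx21, the T-bet factor that STAT4 helps to induce in lymphocytes, had 0 reads in all 6 libraries, and Ifng had 0 reads in Ctr and 5 in αGlu.

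For each STAT gene the 3 genes with the most similar log2 CPM over the 6 libraries were found among 8382 genes that averaged 3 or more on that scale. With 6 libraries high correlations are common, and they are given as a description. Stat2 was followed by Oasl2 (Pearson r 0.9987), Slfn1 (0.9984) and Treml2 (0.9979), all lowest in Ctr 1, and 103 genes exceeded 0.95. Oasl2 and Slfn1 are interferon-responsive. Stat3 was followed by Ercc6l2 (0.9974), Fabp5 (0.9972) and Ocrl (0.9971), and 536 genes exceeded 0.95. Fabp5, a fatty acid carrier, measured 1904, 2197 and 2071 CPM in Ctr and 2582, 4403 and 4106 CPM in αGlu, lowest in Ctr 1 and highest in αGlu 2 and αGlu 3. Stat5a was followed by Sft2d2 (0.9876), Zswim6 (0.9792) and Myo7a (0.9779). For the level genes the closest fits were looser, with Ubr2 (0.9503), Taf2 (0.9459) and Rpl35 (0.9360) for Stat5b and Iws1 (0.9737), Vcpkmt (0.9533) and Nbas (0.9453) for Stat6.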

How the data were processed

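Stranded mRNA libraries were processed by the authors in the RNA-seq Analysis Portal of QIAGEN. The build is GRCm38, per the submitters' processing notes. The aligner, the annotation and the treatment of multi-mapping reads are not given in the sources used here. The deposited counts are whole reads per gene, without normalization, and the deposited TPM values are scaled for gene length and sum to 1000000 per library. RPKM and CPM columns were not used.

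Low genes were removed with filterByExpr of edgeR 4.0.16. A gene was kept if it had about 10 reads, scaled by library size, in at least 3 libraries, and 15 reads in all. With a library left out, the smaller group set the number of libraries needed. The group effect was tested with the two-sided quasi-likelihood F test of edgeR on TMM-normalized counts in R 4.3.3. The p-values were adjusted over 11933 genes by Benjamini and Hochberg. A call needed an adjusted p under 0.1 and a log2 fold change beyond 1 in either direction. The SE is the fold change divided by the root of F. CPM refers to TMM-adjusted library sizes, and log2 CPM has a prior count of 2. No overlap means that all 3 libraries of 1 group lay above all of the other. A count of 0 was taken to allow 3 reads. The models were also run on simulated data with the spread of the Ctr libraries and no library set apart. Such data do not show how the models behave with a library like αGlu 1.

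The STAT genes and the 17 gene lists (10 of the pathway, 7 of cell type markers) were written from general knowledge with earlier results of these data known. The text names all STAT genes, JAKs and IL-4/IL-13 receptor chains, of each pathway list the 2 genes with the largest absolute fold change among those without overlap, and the 3 genes most like each STAT gene, other than unnamed gene models. A further listed gene, Ear11, was not used here. Protein-coding sequences were not used.

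Alternatives were DESeq2 1.42.0, limma 3.58.1 (voom, and trend on log2 TPM with 0.5 or 0.1 added), the likelihood-ratio test, robust estimation, RLE factors, library size alone, other filters and thresholds, the replicate number as a block, and each library left out.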

Additional observations from a re-analysis of the deposited data

How the results depend on the processing

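Leaving out 1 library at a time gave 0 to 2290 calls over all genes, 0 to 1 STAT calls (Stat4, without αGlu 1) and 4062 to 8131 genes without overlap, against 3599 with all libraries. With 1 library fewer, groups separate without overlap more easily, so a count above 3599 does not by itself reflect the library left out. In each of these ranges the upper value is the fit without αGlu 1. Stat4 passed the filter on low counts there only through the remaining αGlu libraries, the group in which it is high. Its call in that fit is therefore not an independent test of Stat4. Other methods called 1117 genes (DESeq2), 899 (likelihood-ratio test), and 2 and 1 (limma-trend with 0.5 and 0.1 added to TPM). All called 0 STAT genes, and the cause of the unequal counts was not tested.

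The sign of the 3 level genes was not stable. The ranges that follow are of the fits with 1 library left out. Stat5a went to -0.028 without αGlu 3 (range -0.028 to 0.127). Stat5b went to -0.037 without Ctr 3 and -0.0053 without αGlu 3 (range -0.037 to 0.075). Stat6 went to -0.0071 without Ctr 3 and -0.022 without αGlu 1 (range -0.022 to 0.051). Over all 19 alternatives the highest values were 0.1365 for Stat5a, 0.108 for Stat5b and 0.0998 for Stat6. Stat3 stayed between 0.64 and 0.93 over all 19 alternatives, with adjusted p from 0.00068 to 0.427, and Stat2 between 0.05 and 0.67, with adjusted p from 0.328 to 0.806.

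With the replicate block, 17 genes and 0 STAT genes were called, and Stat3 differed by 0.72 on the log2 scale (SE 0.15, adjusted p 0.156). Deviations from the group means of same-numbered libraries correlated at 0.076, 0.065 and 0.154, so the numbers were not taken to pair the libraries. Whether a number marks the same mouse in both groups is not given. Stat4, with at most 42 reads in a library, failed the filter on low counts when all libraries were used.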

Other observations

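Several receptor chains for IL-12 family cytokines, which signal through STAT4 and STAT3, differed in direction in αGlu 2 and αGlu 3. These genes were chosen after their values were seen. Il23r, the specific chain of the IL-23 receptor, had 0 reads in the 3 Ctr libraries and in αGlu 1, and measured 4.03 and 3.78 CPM in αGlu 2 and αGlu 3. Il12rb2, the signalling chain of the IL-12 receptor, measured 18.8, 13.0 and 19.3 CPM in Ctr and 15.4, 2.77 and 3.89 CPM in αGlu. Il27ra, the IL-27 receptor chain, measured 12.4, 12.50 and 9.42 CPM in Ctr and 9.52, 2.49 and 1.54 CPM in αGlu. Il12rb1, another chain of this family, did not follow that pattern. It measured 0.954, 1.25 and 2.60 CPM in Ctr and 6.31, 2.24 and 2.57 CPM in αGlu. Il6st, the gp130 chain shared by IL-6 family receptors that use STAT3, measured 897, 798 and 545 CPM in Ctr and 642, 235 and 196 CPM in αGlu. With all 6 libraries Il23r failed the filter on low counts and the others were not called. Both type I interferon receptor chains were higher in αGlu 2 and αGlu 3. Ifnar1 measured 95.3, 85.9 and 77.35 CPM in Ctr and 89.1, 203 and 189 CPM in αGlu. For Ifnar1, αGlu 1 lay within the range of the Ctr libraries. Ifnar2 measured 93.8, 101 and 110 CPM in Ctr and 120, 255 and 217 CPM in αGlu. Neither chain was called with all 6 libraries.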
